A study of Bos indicus and Bos taurus with 17 samples.

Results

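Cathepsins, lysosomal membrane proteins and the lysosomal regulator TFEB were followed in milk epithelial cells of Kashmiri and Jersey cows at 3 days of lactation. The 10 genes were chosen by symbol, as lysosomal proteases (CTSB, CTSD, CTSS, CTSZ, CTSH, CTSC), lysosomal membrane proteins (LAMP1, LAMP2), the cathepsin inhibitor CST3 and TFEB. A gene was looked up by its own name or as a part of a joined name, and where a name was repeated the entry with the highest mean over the 6 groups was taken. Of the 10 genes, 8 were found among the 21631 distinct names, while CTSD and CST3 were not found under these names and were not analysed here. CTSS was found only in an entry that joins ARNT, CTSK and CTSS, so its values hold all 3 genes and are called the CTSS entry below. CTSH had a second entry with lower values, and the higher one was used.

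The study set a local breed of Kashmir (Kashmiri) against a dairy breed (Jersey) on days 15, 90 and 250 in milk (D15, D90 and D250), which makes 6 groups. The labels gave no treatment, the cows stood at 1 farm, and their labels gave lactation number 2 or 3, where the paper states 3. The labels listed 17 samples, with 3 per group but 2 for Jersey at D90. The paper describes 3 cows per breed on each of the 3 days, which is more samples than the labels list. All samples of a day carried the same month, March for D15, July for D90 and December for D250, so that month and day in milk cannot be told apart. Mammary epithelial cells (MEC) were pulled from milk with magnetic beads that carry an antibody to cytokeratin 18 (KRT18), and poly-A RNA was sequenced.

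Cathepsins are proteases that are made as inactive precursors and cut proteins inside the acidic lysosome. CTSB, CTSS, CTSZ, CTSH and CTSC are cysteine cathepsins, and some cathepsins leave the cell and cleave milk proteins. LAMP1 and LAMP2 are heavily glycosylated proteins of the lysosomal membrane, and TFEB is a transcription factor that switches on lysosomal and autophagy genes when it enters the nucleus. Macrophages, neutrophils and other leukocytes, which milk also carries, are rich in lysosomes.

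Levels are in FPKM, the authors' count of fragments divided by transcript length in kilobases and by the mapped reads, with 1 value for each group. No value per cow was used here, so no error, no interval and no test could be given, and 1 cow could carry a group. The paper gives the reads of each library, but the number of fragments behind each value is unknown. Neighbouring values in an order of levels could therefore not be told apart or shown to be alike. FPKM is per length, so levels of different genes can be set side by side. Log2 ratios were computed with a pseudocount of 1 FPKM, which understates the ratios of low genes, over features with at least 1 FPKM in either group. A feature was counted at 2-fold when its log2 ratio was at least 1 in either direction.

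Epithelial and leukocyte marker genes were set side by side within each group. The paper checked purity in another way, by qPCR on samples of D90. It found KRT18 and CSN2 higher, and LSP1, HBA and CD18 lower, in the captured cells than in all somatic cells of the milk. KRT18, the antigen used for capture, was at 51.3, 9.13 and 11.5 FPKM in Kashmiri at D15, D90 and D250, and at 33.7, 1.59 and 4.51 FPKM in Jersey. PTPRC, which marks all leukocytes, was at 60.0 to 320.2 FPKM in the 6 groups and lay above KRT18 in each. KRT18 was among the lower epithelial markers. KRT19 was at 3195, 295.2 and 1319 FPKM in Kashmiri and at 1687, 38.2 and 835.1 FPKM in Jersey, above PTPRC in all groups but Jersey at D90. XDH, an enzyme of the milk fat globule membrane, was at 205.5 to 1953 FPKM and above PTPRC in all 6 groups. In Jersey at D90 it was the only epithelial marker above PTPRC, of 13 found. CORO1A, another leukocyte marker, exceeded XDH at D90, with 499.6 against 323.1 FPKM in Kashmiri and 398.0 against 205.5 FPKM in Jersey. It also did so in Jersey at D15, with 778.7 against 561.7 FPKM. LSP1 was at 68.6 to 333.7 FPKM and ITGB2, the gene of CD18, at 46.5 to 179.5 FPKM. Fewer cells of a type and less RNA per cell cannot be told apart in these bulk values.

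CTSB, a lysosomal cysteine protease, had the highest level of the 8 genes in every group. Its level was 235.0, 908.8 and 1006 FPKM in Kashmiri at D15, D90 and D250. In Jersey it was 3772, 4479 and 2019 FPKM on the same days. All 3 Jersey values lay above all 3 Kashmiri values, and the highest was 19.1 times the lowest. Here and below, it was not counted how many of all features had breeds without overlap. CTSB stood at place 9 of the 21631 features in Jersey at D90 and at place 384 in Kashmiri at D15. Jersey exceeded Kashmiri 16.1-fold at D15, 4.93-fold at D90 and 2.01-fold at D250, so that the breed ratio was smaller on each later day.

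The CTSS entry covers CTSS, the protease that trims the invariant chain in antigen presentation, together with ARNT and the collagen-cleaving CTSK. It stood at 40.3, 237.7 and 220.6 FPKM in Kashmiri. In Jersey it stood at 448.7, 1292 and 652.6 FPKM. It had the widest range of the 8, with a highest value 32.1 times the lowest, and all Jersey values were again the higher ones. The lowest group was Kashmiri at D15 and the highest Jersey at D90, as for CTSB.

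CTSH, an aminopeptidase of the same family, was at 43.1, 180.3 and 135.7 FPKM in Kashmiri. Its Jersey values were 690.3, 1271 and 483.2 FPKM. CTSC, the dipeptidyl peptidase that activates granule serine proteases of leukocytes, was at 22.8, 88.7 and 95.2 FPKM in Kashmiri and at 227.2, 581.0 and 237.1 FPKM in Jersey. Both had their lowest value in Kashmiri at D15 and their highest in Jersey at D90, 29.5 times apart for CTSH and 25.5 times for CTSC. The breeds did not overlap for either gene.

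CTSZ, a carboxypeptidase, was at 123.4, 277.8 and 210.4 FPKM in Kashmiri. It was at 1085, 999.9 and 398.7 FPKM in Jersey, and its highest value was the one at D15. It differed less between groups than the other cathepsins, with 8.79 times between the highest and the lowest value. The Jersey values were all above the Kashmiri values here too.

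**Figure D1:**
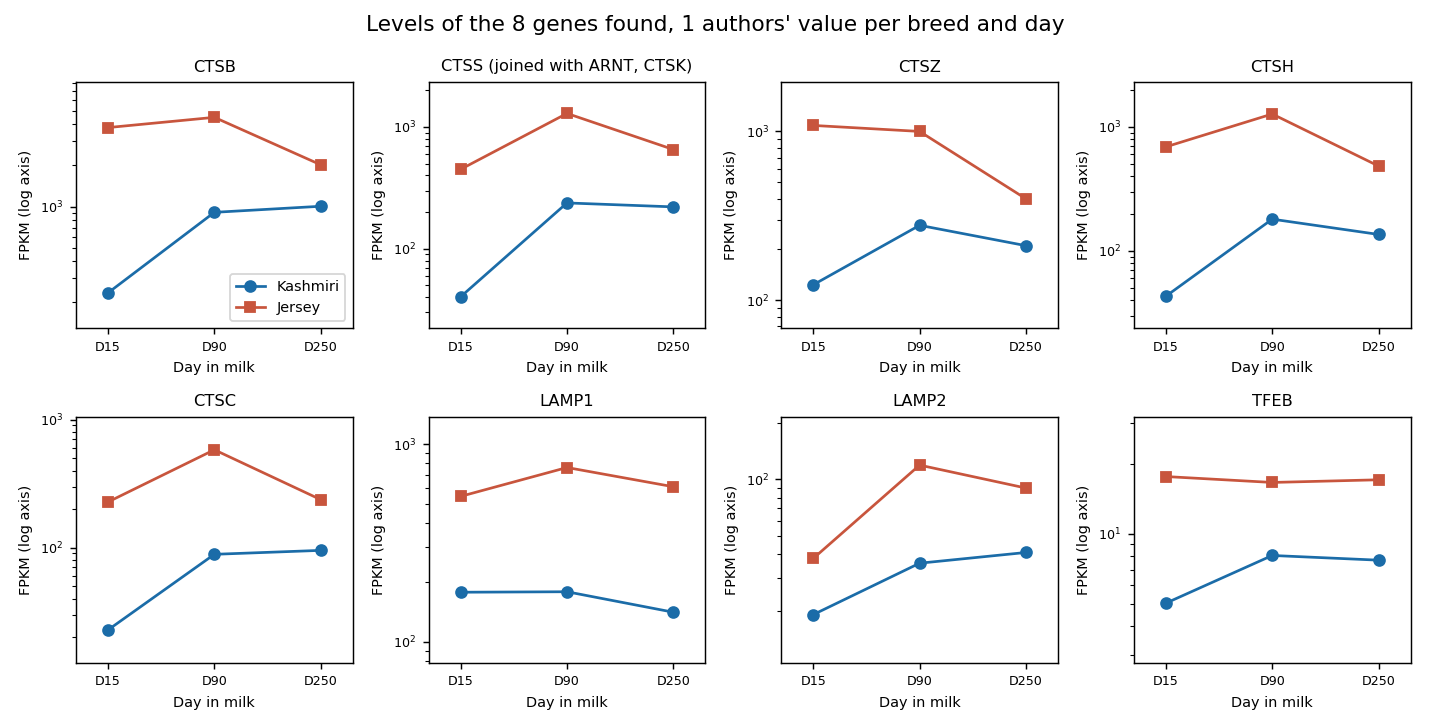
FPKM on log axes for each of the 8 genes found, by day in milk, with 1 authors' value per point, blue circles for Kashmiri and red squares for Jersey; there are no replicates and no error bars. The Jersey line lies above the Kashmiri line in every panel, and the cathepsins differ more between groups than LAMP1, LAMP2 and TFEB.

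The 5 cathepsin entries summed to 464.5, 1693 and 1668 FPKM in Kashmiri and to 6224, 8623 and 3791 FPKM in Jersey. The sum took from 0.0479% of the FPKM of all named features in Kashmiri at D15 to 1.41% in Jersey at D90. Shares within this sum do not depend on how the groups are scaled against each other, and they were computed after the levels had been seen. CTSB gave 50.6% to 60.6% of the sum in each of the 6 groups, and CTSC was the smallest part everywhere, with 3.65% to 6.74%. CTSZ had its largest share at D15 in both breeds, with 26.6%, 16.4% and 12.6% over the 3 days in Kashmiri and 17.4%, 11.6% and 10.5% in Jersey. The share of the CTSS entry was smallest at D15 in both breeds. It was 8.67%, 14.0% and 13.2% in Kashmiri and 7.21%, 15.0% and 17.2% in Jersey.

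**Figure D2:**
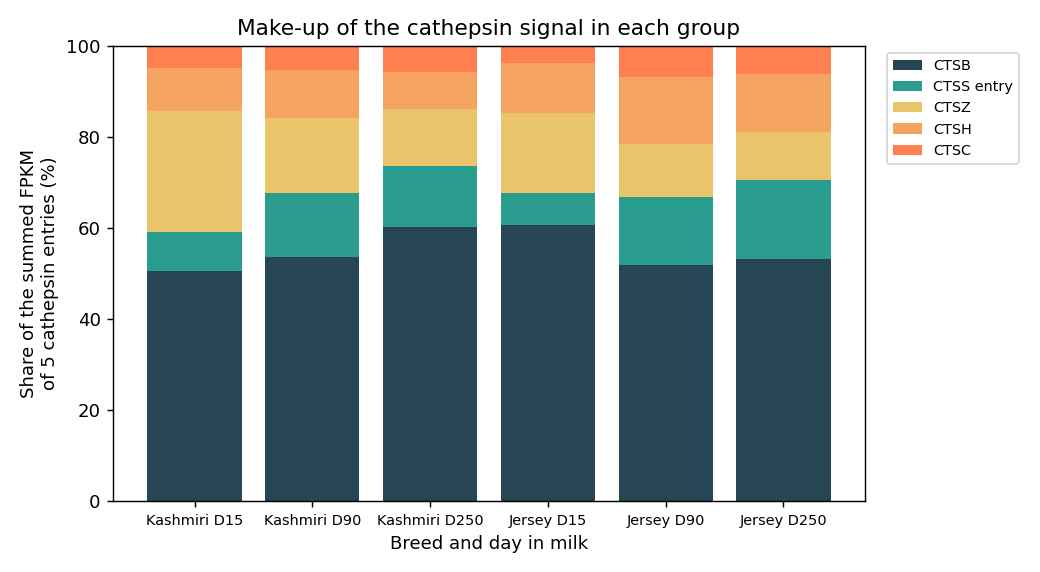
Share in percent of the summed FPKM of the 5 cathepsin entries, 1 stacked bar per group of breed and day. CTSB makes up between 50.6% and 60.6% of every bar, and the CTSZ segment is largest at D15 in both breeds.

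Ratios to CTSB within a group showed where the proteases parted. CTSB was 5.45 times CTSH in Kashmiri at D15 and 5.46 times CTSH in Jersey at D15, although the levels of both differed 16-fold between these groups. The ratio lay between 3.52 in Jersey at D90 and 7.41 in Kashmiri at D250. CTSB over the CTSS entry was highest at D15 in both breeds, with 5.83 in Kashmiri and 8.41 in Jersey, and was 3.09 to 4.56 in the other 4 groups. These ratios were chosen after the levels had been seen.

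LAMP1, a major lysosomal membrane protein, stood at 177.8, 178.8 and 140.8 FPKM in Kashmiri. In Jersey it stood at 543.5, 761.0 and 608.1 FPKM. Its values spanned 1.27 times within Kashmiri and 1.40 times within Jersey, less than those of any cathepsin entry, while the breeds did not overlap. LAMP1 was the only one of the 8 genes whose lowest value was not in Kashmiri at D15.

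LAMP2, which also takes part in chaperone-mediated autophagy, was lower than LAMP1 in all 6 groups. It was at 19.1, 35.8 and 40.8 FPKM in Kashmiri and at 38.0, 119.1 and 89.9 FPKM in Jersey. LAMP2 was the only one of the 8 genes for which the breeds overlapped, since Kashmiri at D250 was above Jersey at D15. As the share of all features without overlap was not counted, the lack of overlap is not read as particular to the other genes. LAMP1 over LAMP2 was 9.32, 4.99 and 3.45 over the 3 days in Kashmiri and 14.3, 6.39 and 6.77 in Jersey, highest at D15 in both breeds.

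TFEB was the lowest of the 8 genes in every group. It was at 5.03, 8.06 and 7.69 FPKM in Kashmiri. In Jersey it was at 17.6, 16.6 and 17.0 FPKM, values that spanned 1.06 times. The cathepsin sum was 92.4, 210.1 and 216.9 times TFEB in Kashmiri and 354.0, 519.9 and 222.6 times TFEB in Jersey, a ratio added after the levels were seen. The mRNA level says nothing of how much TFEB protein was in the nucleus.

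The breed comparison asked how Jersey and Kashmiri MEC differ on the same day. At D15, 7 of the 8 genes were at least 2-fold higher in Jersey and none was lower, beside 15.9% of all 11202 features higher and 13.0% lower. The median log2 ratio of the 8 genes was 3.19, and that of all features was -0.13. The cathepsins differed most, with log2 ratios of 4.00 for CTSB, 3.97 for CTSH, 3.45 for the CTSS entry, 3.26 for CTSC and 3.13 for CTSZ, each at or above the 98.0th percentile of all features. LAMP1 was at 1.61, TFEB at 1.62 and LAMP2 at 0.96, just inside the 2-fold limit. Of all features at least 2-fold apart at D15, 55.1% were higher in Jersey, and 75.5% when the groups were rescaled to their sum without 6 milk protein genes.

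At D90, 7 of the 8 genes were at least 2-fold higher in Jersey and none lower, beside 17.0% of all features higher and 15.9% lower. The median log2 ratio was 2.19 for the 8 genes and -0.03 for all features. CTSH had the largest log2 ratio with 2.81, then CTSC with 2.70, the CTSS entry with 2.44, CTSB with 2.30 and LAMP1 with 2.08. TFEB, at 0.96, was the gene within the limit, which rests on the pseudocount, since its FPKM values were 2.06-fold apart. Of all features at 2-fold on that day, 51.6% were higher in Jersey as deposited and 66.0% after the rescaling without milk proteins.

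At D250, 7 of the 8 genes were at least 2-fold higher in Jersey and none lower, beside 22.8% of all features higher and 11.7% lower. The median log2 ratio of the 8 genes was 1.21, against -0.10 for all features. LAMP1 now had the largest log2 ratio with 2.10, followed by CTSH with 1.82 and the CTSS entry with 1.56, while CTSB at 1.00 was just past the limit and CTSZ at 0.92 just inside it. The count at D250 depended on the scaling. It was 2 of 8 after upper-quartile scaling and 2 of 8 after the rescaling without milk proteins, and of all features at 2-fold the share higher in Jersey was 66.0% as deposited, 34.5% and 27.2% in that order. All 8 genes were higher in Jersey on each of the 3 days as deposited and under the 3 other scalings tried.

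**Figure D3:**
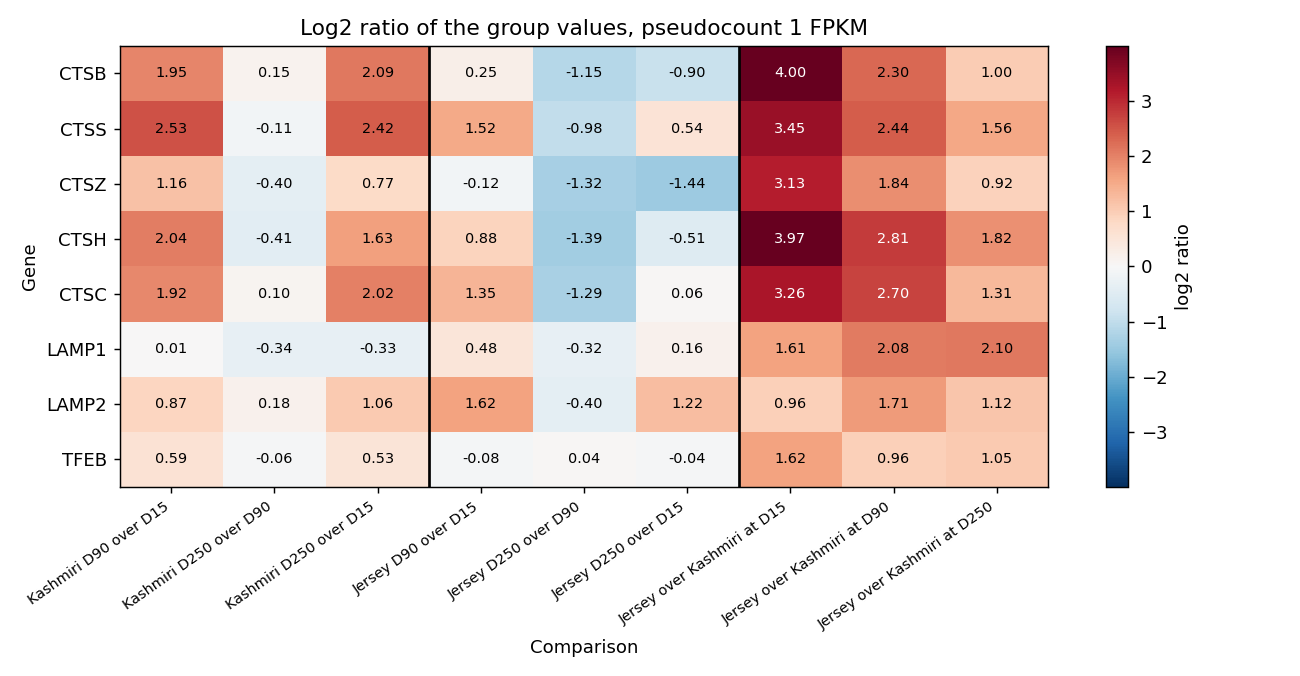
Log2 ratio of the group values, with a pseudocount of 1 FPKM, for the 8 genes (rows) in the 9 comparisons (columns), with the value in each cell. Every cell of the 3 breed columns is above 0, and in the column for Jersey D250 over D90 the 5 cathepsins lie between -1.39 and -0.98.

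The stage comparisons asked how MEC of 1 breed differ over lactation, and pairs of them share a group, so they are not independent of each other. In Kashmiri at D90 against D15, 5 of the 8 genes were at least 2-fold higher and none lower, beside 14.7% of all features higher and 18.8% lower. The 5 were the cathepsins, with log2 ratios of 2.53 for the CTSS entry, 2.04 for CTSH, 1.95 for CTSB, 1.92 for CTSC and 1.16 for CTSZ. LAMP2 was at 0.87, TFEB at 0.59 and LAMP1 at 0.01. Under the 3 other scalings LAMP2 was at 1.00 to 1.17 and so reached the limit. The share of higher ones among all features at 2-fold was 43.9% as deposited, 55.3% after upper-quartile scaling and 60.4% after the rescaling without milk proteins.

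From D90 to D250 in Kashmiri, none of the 8 genes differed 2-fold, and their log2 ratios ran from -0.41 to 0.18, beside 8.95% of all features higher and 8.77% lower. Scaling decided the sign for 5 of them, namely the CTSS entry, CTSZ, CTSH, LAMP1 and TFEB. Of all features at 2-fold, 50.5% were higher at D250 as deposited, 67.4% after upper-quartile scaling and 91.5% after the rescaling without milk proteins.

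At D250 against D15 in Kashmiri, 5 of the 8 genes were higher and none lower, beside 11.2% of all features higher and 14.5% lower. The 5 were the CTSS entry at 2.42, CTSB at 2.09, CTSC at 2.02, CTSH at 1.63 and LAMP2 at 1.06, and CTSZ was at 0.77. The count depended on the scaling. CTSZ was at 1.18 after upper-quartile scaling, where 20.2% of all features were higher. After the rescaling without milk proteins CTSZ was at 1.77 and TFEB at 1.40, where 39.5% of all features were higher. LAMP1 was at -0.33 as deposited and at up to 0.67 under another scaling. Among all features at 2-fold, 43.7% were higher at D250 as deposited, 73.4% after upper-quartile scaling and 93.8% after the rescaling without milk proteins.

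In Jersey at D90 against D15, 3 of the 8 genes were at least 2-fold higher and none lower, beside 12.8% of all features higher and 16.9% lower. They were LAMP2 at 1.62, the CTSS entry at 1.52 and CTSC at 1.35. CTSH was at 0.88, LAMP1 at 0.48 and CTSB at 0.25. After the rescaling without milk proteins CTSH was at 1.14, past the limit. CTSZ at -0.12 and TFEB at -0.08 were above 0 under another scaling, at up to 0.15 and 0.17. Higher at D90 were 43.1% of all features at 2-fold as deposited and 59.5% after the rescaling without milk proteins.

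From D90 to D250 in Jersey the cathepsins were lower. Of the 8 genes, 4 were at least 2-fold lower and none higher, beside 16.6% of all features higher and 4.22% lower. The log2 ratio was -1.39 for CTSH, -1.32 for CTSZ, -1.29 for CTSC and -1.15 for CTSB, while the CTSS entry at -0.98 fell just short of the limit. These 5 lay at the 1.6th to 4.3rd percentile of all features, whose median was 0.15. LAMP2 was at -0.40, LAMP1 at -0.32 and TFEB at 0.04 as deposited, with TFEB at -0.35 under another scaling. Among all features at 2-fold, 79.8% were higher at D250 as deposited, 65.5% after upper-quartile scaling and 51.4% after the rescaling without milk proteins.

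At D250 against D15 in Jersey, LAMP2 was higher with a log2 ratio of 1.22 and CTSZ was lower with -1.44, beside 24.5% of all features higher and 17.9% lower. CTSB was at -0.90, CTSH at -0.51 and the CTSS entry at 0.54. CTSB passed the limit at -1.11 after upper-quartile scaling and at -1.05 after the rescaling without milk proteins. CTSC at 0.06, LAMP1 at 0.16 and TFEB at -0.04 took the other sign, or 0.00 for TFEB, under another scaling. CTSB, CTSZ and CTSH were thus below their D15 level in Jersey and above it in Kashmiri.

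Other proteases of the family were read from a fixed list of 12, of which 7 were found under names of their own. CTSA, a carboxypeptidase that protects other lysosomal enzymes, was at 18.0, 95.3 and 65.5 FPKM in Kashmiri and at 130.1, 404.9 and 138.8 FPKM in Jersey. Legumain (LGMN), an asparaginyl endopeptidase that activates cathepsins, was at 69.0, 275.9 and 280.4 FPKM in Kashmiri and at 603.6, 773.3 and 283.3 FPKM in Jersey. Both were at least 2-fold higher at D90 than at D15 in Kashmiri, where the list held 4 higher and none lower of 7. Both were at least 2-fold lower at D250 than at D90 in Jersey, where 2 of the 6 tested were lower and none higher. Of all features, 14.7% were higher and 18.8% lower in the Kashmiri comparison, and 16.6% higher and 4.22% lower in the Jersey one. Against Kashmiri, Jersey had 4 of the 7 higher and 1 lower at D15, 4 higher and 1 lower at D90, and 2 higher and 2 lower at D250, with median log2 ratios of 1.53, 1.48 and 0.01. On these days 15.9%, 17.0% and 22.8% of all features were higher in Jersey, and 13.0%, 15.9% and 11.7% lower.

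CTSW was lower on all 3 days. It is the cathepsin of cytotoxic T and NK cells, and it was at 396.4, 954.3 and 98.4 FPKM in Kashmiri and at 54.2, 13.7 and 6.63 FPKM in Jersey, with log2 breed ratios of -2.85, -6.03 and -3.70. CTSW exceeded CTSB in Kashmiri at D15, 1.69-fold, and at D90, 1.05-fold, and CTSB was 328.0 times CTSW in Jersey at D90. CST7, a cystatin of leukocytes that inhibits cathepsins, was also higher in Kashmiri, with 73.1, 162.4 and 25.6 FPKM against 32.0, 13.8 and 5.41 FPKM in Jersey. The other 4 cystatins found, of 8 listed, gave no view of the inhibitors, since CST8, CST11 and FETUB were below 1 FPKM in every group and CSTA was at 0.27 to 1.73 FPKM.

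The wider lysosome was described by lists of other genes, read against the shares of all features given above. Of 33 lysosomal hydrolases listed, 30 were found. At D15, 20 were at least 2-fold higher in Jersey and none lower, with a median log2 ratio of 1.54. DNASE2, the lysosomal DNase, was at 3.28, LIPA, the acid lipase of cholesteryl esters, at 3.16, and the sulfatase SGSH at 2.47. At D90, 16 were higher and 1 lower with a median of 1.16, and at D250, 11 were higher and none lower with a median of 0.45. The median was smaller on each later day under every scaling tried. At D250 its sign depended on the scaling, with -0.06 after upper-quartile scaling and -0.23 after the rescaling without milk proteins. The median of all features at D250 was -0.10 as deposited, and -0.59 and -0.74 after these scalings.

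Over the stages the hydrolases held 9 higher and 2 lower of 29 tested in Kashmiri at D90 against D15, with LIPA at 3.16 and PPT1 at 1.98 among them. In Jersey at D250 against D90, 1 was higher and 6 lower, where DNASE2 at -1.72, LIPA at -1.39 and ARSA at -1.24 differed most. The medians of these comparisons were 0.74 and -0.38, on the same side of 0 as those of the 5 cathepsins, 1.95 and -1.29.

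Of 21 other membrane and activator proteins of the lysosome, 19 were found and 17 tested. In Jersey 9 were at least 2-fold higher and 1 lower at D15, 10 were higher and none lower at D90, and 7 were higher and none lower at D250. The medians were 1.25, 1.04 and 0.72, the last of which was -0.07 after upper-quartile scaling and -0.22 after the rescaling without milk proteins. All features had medians of -0.59 and -0.74 under these scalings. CD68, a lysosomal membrane protein of macrophages that is also in the macrophage list, was at 3.77, 2.11 and 1.89. Its level was 11.4, 280.7 and 268.4 FPKM in Kashmiri and 169.0, 1211 and 995.5 FPKM in Jersey. CTSB was 20.6 times CD68 in Kashmiri and 22.3 times CD68 in Jersey at D15, and 2.03 to 3.75 times CD68 in the other 4 groups.

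The V-ATPase is the proton pump that acidifies the lysosome. Of 19 subunits listed, 18 were found and 17 tested, and their median log2 breed ratios over the 3 days were 1.21, 1.25 and 1.09. The counts were 12 higher and none lower, 10 higher and 1 lower, and 9 higher and 1 lower. At D250 the median of the subunits was 0.51 after upper-quartile scaling and 0.33 after the rescaling without milk proteins. Under each, 7 were higher and 1 lower. Of all features, 15.6% were higher and 29.6% lower under the first, with a median of -0.59. Under the second, 13.9% were higher and 37.1% lower, with a median of -0.74. TCIRG1, the subunit known from osteoclasts and leukocytes, was at 40.4, 28.4 and 22.3 FPKM in Kashmiri and at 227.5, 287.8 and 358.3 FPKM in Jersey. All 11 genes for sorting enzymes to the lysosome were found, and their median log2 breed ratios were 0.33, 0.38 and 0.37, with 3, 2 and 3 genes at least 2-fold higher in Jersey and none lower. The median at D250 was -0.13 after upper-quartile scaling and -0.29 after the rescaling without milk proteins, beside -0.59 and -0.74 for all features.

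Of 20 relatives and regulators of TFEB listed, 16 were found. TFE3, the relative of TFEB with the broadest known expression, was above TFEB in all 6 groups. It was at 14.2, 19.7 and 21.5 FPKM in Kashmiri and at 26.2, 67.4 and 139.9 FPKM in Jersey. TFE3 was 2.82, 2.45 and 2.79 times TFEB in Kashmiri and 1.49, 4.06 and 8.22 times TFEB in Jersey, a ratio added after the levels were seen. In Jersey TFE3 was thus highest at D250.

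MITF, another relative, was at 1.30, 2.67 and 10.7 FPKM in Kashmiri and at 11.4, 22.9 and 20.8 FPKM in Jersey. TFEC, the relative known from macrophages, was at 0.30, 3.58 and 5.95 FPKM in Kashmiri and at 4.43, 30.7 and 27.1 FPKM in Jersey. At least 2-fold higher in Jersey were 3 of 15 tested at D15, 10 of 16 at D90 and 7 of 16 at D250, with none lower as deposited. The counts at D250 depended on the scaling. They were 5 higher and 2 lower after upper-quartile scaling and after the rescaling without milk proteins. Of all features, 15.6% were higher and 29.6% lower after the first scaling, and 13.9% higher and 37.1% lower after the second. The median log2 ratio at D250 was 0.82 as deposited, and 0.26 and 0.09 in the same order of scalings. The medians of all features were -0.10, -0.59 and -0.74. Of 17 autophagy genes found, 16 were tested. Their median log2 breed ratios over the 3 days were -0.01, 0.33 and 1.19, highest at D250. That order depended on the scaling, since the medians were 0.37, 0.65 and 0.42 after the rescaling without milk proteins, with D90 highest. The medians of all features were then 0.22, 0.27 and -0.74. The lower value at D250 after rescaling is therefore not read as particular to the autophagy genes.

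**Figure D4:**
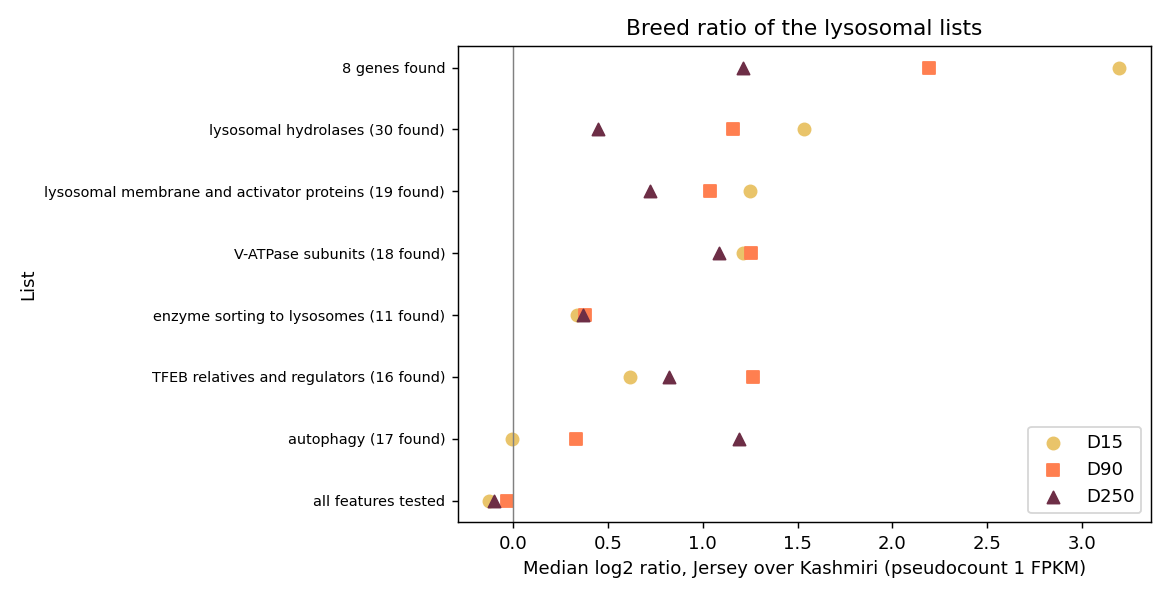
Median log2 ratio of Jersey over Kashmiri (horizontal axis, pseudocount 1 FPKM) for the 8 genes, 6 lysosomal lists and all features tested, with 1 symbol per day. The 8 genes and the hydrolases lie farther right at D15 than at D250, autophagy genes farther right at D250, and all features near 0. Values are as deposited. At D250 the medians of the hydrolases, the membrane proteins and the sorting genes were below 0 after upper-quartile scaling and rescaling without milk proteins. The median of all features was then lower still, at -0.59 and -0.74 in that order.

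Markers of other cells differed between the groups beside the cathepsins. Counts of markers at 2-fold are read against the shares of all features given above. All 12 macrophage markers listed were found, and their summed level was 100.4, 489.4 and 489.8 FPKM in Kashmiri and 1072, 2351 and 2779 FPKM in Jersey. The highest Jersey sum was set by ADGRE1, found only in an entry joined with VAV1, at 189.9 FPKM at D90 and 908.6 FPKM at D250. Without that entry the sums were 93.8, 471.8 and 475.9 FPKM in Kashmiri and 1017, 2161 and 1871 FPKM in Jersey, where D90 was then highest. CSF1R, their defining receptor, was at 3.90, 18.9 and 31.5 FPKM in Kashmiri and at 68.5, 130.2 and 106.0 FPKM in Jersey, and neither it nor CD68 was at 0 in any group. At D15, 11 of 11 macrophage markers tested were at least 2-fold higher in Jersey with a median log2 ratio of 3.08. At D90 it was 10 of 11 with a median of 2.11, and at D250 it was 5 higher and 1 lower with a median of 0.81. In Kashmiri at D90 against D15, 9 of 10 were higher, and in Jersey at D250 against D90, 1 was higher and 5 lower.

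CTSB over CSF1R was 60.2, 48.1 and 31.9 in Kashmiri and 55.1, 34.4 and 19.0 in Jersey. CTSB over C1QA, a complement gene of macrophages, was 34.9, 29.1 and 41.6 in Kashmiri and 26.0, 74.2 and 168.0 in Jersey. The 2 markers thus gave ratios that ran in other directions over the days in Jersey. Both ratios were chosen after the levels were seen.

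The 9 neutrophil markers found of 12 summed to 204.6, 529.5 and 656.7 FPKM in Kashmiri and to 5183, 6324 and 16113 FPKM in Jersey, and all 9 were at least 2-fold higher in Jersey on each day. CSF3R, found in a joined entry, was at 53.9 to 61.6 FPKM in Kashmiri and at 310.4, 469.2 and 2549 FPKM in Jersey. In Jersey the neutrophil sum was highest at D250, where the cathepsin sum was at its lowest for that breed, although MMP9 was at 25.0, 70.1 and 14.8 FPKM and so lowest on that day. Without the 2 joined entries in the list the Jersey sums were 4707, 5332 and 12978 FPKM.

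The 10 T and NK cell markers summed to 469.0, 1690 and 398.0 FPKM in Kashmiri and to 293.3, 177.0 and 101.3 FPKM in Jersey, the order of the breeds seen for CTSW and CST7. The 8 B cell markers summed to 12.6 to 89.9 FPKM, and the 5 red blood cell markers found were below 1 FPKM in every group. The 13 epithelial markers found of 14 summed to 7815, 1036 and 4213 FPKM in Kashmiri and to 3249, 304.1 and 2382 FPKM in Jersey, lowest at D90 in both breeds. The part of these cell types in the levels of the cathepsins was not tested.

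**Figure D5:**
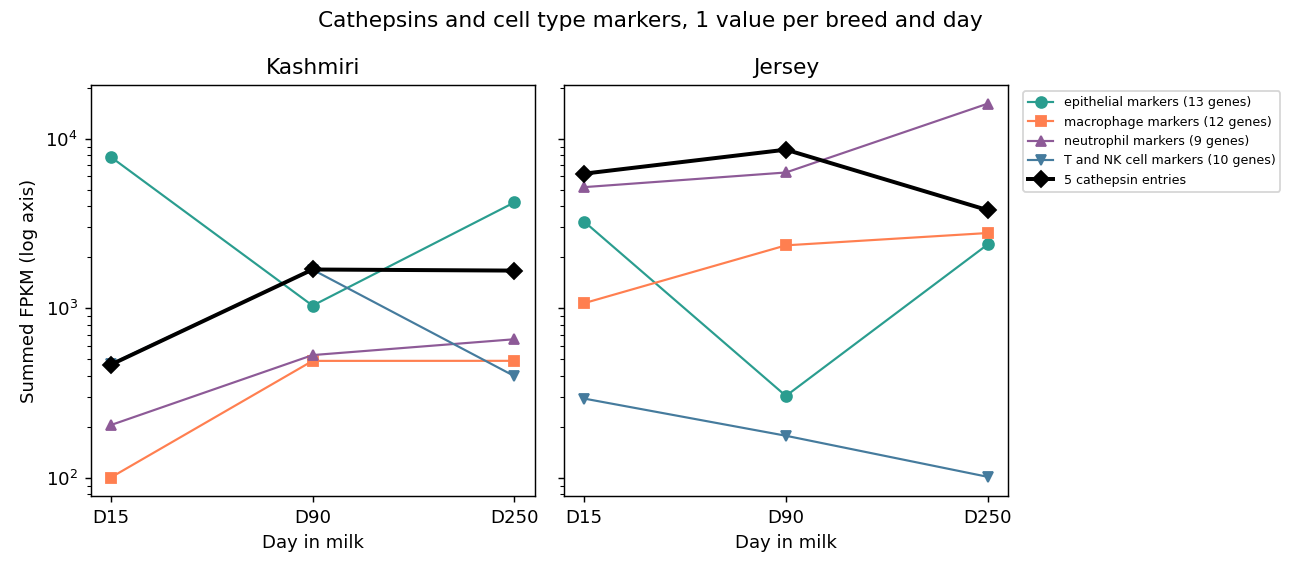
Summed FPKM (log axis) of the 5 cathepsin entries (black diamonds) and of marker lists for 4 cell types, by day in milk, Kashmiri left and Jersey right, 1 authors' value per group. In Kashmiri at D15 and D90 the T and NK cell point lies behind the cathepsin point, with 469.0 against 464.5 and 1690 against 1693 FPKM; in Jersey the neutrophil sum is highest at D250, where the cathepsin sum is lowest.

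The genes whose pattern over the 6 groups was most like each of the 8 were named by Pearson's r of log2(FPKM + 1) among 4279 other genes with a mean of at least 10 FPKM and no value of 0, or 4280 for the CTSS entry. All 6 points come from 1 table with 1 scaling, and no p is given. CTSB was most like IFI30, a thiol reductase of the lysosome, with r = 0.996, then SCPEP1 at 0.994. CTSH was like TET1 at 0.998 and SLC39A1 at 0.994. CTSZ was most like GPC1 at 0.998, BAX at 0.992 and the lysosomal calcium channel MCOLN1 at 0.989.

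The CTSS entry was most like FLNA at 0.999, SPG21 at 0.994 and MMP14 at 0.992, and CTSC like MMP14 at 0.992, HK1 at 0.990 and GPI at 0.989. LAMP1 and LAMP2 were each most like a proteasome subunit, PSMD8 at 0.996 and PSMA6 at 0.994. LAMP1 was next most like TNIP2 at 0.992 and NADK at 0.991, and LAMP2 like TMEM106A and CERS2 at 0.991. TFEB was most like FHL3 at 0.997, RAB32 at 0.995 and DENND4B at 0.993. High values were common, since 114 to 279 of the candidates had an r above 0.9 with each gene. Among the 8 genes themselves r ran from 0.65 for CTSZ and LAMP2 to 0.99 for CTSC and the CTSS entry, and the 10 pairs of cathepsins lay between 0.85 and 0.99.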

How the data were processed

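RNA of milk epithelial cells from 17 samples in 6 groups was sequenced by the authors, who trimmed the reads with Trimmomatic, aligned them with Bowtie and TopHat to the bovine assembly UMD3.1, and derived expression with Cufflinks and Cuffdiff. The submitters' processing notes name Bowtie2. The deposited values are FPKM, 1 per group for 61264 entries, of which 25121 carried a name. As no counts per gene were used, the number of fragments behind each value and its precision are unknown, and no test was run.

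Groups were compared in 9 comparisons by log2 ratios with a pseudocount of 1 FPKM, over names with at least 1 FPKM in either group. The named genes were the 10 members, the 3 genes most like each by Pearson's r, up to 3 per list and comparison with the largest log2 ratio, TFE3, MITF, and cell type markers. Some genes that this rule names are not reported here. The members and lists were chosen with earlier results of these data known. Alternatives were a pseudocount of 0.1 FPKM, no pseudocount, no lower limit, a 4-fold limit, entries of a name summed, joined names left out, and scaling by upper quartile, by the sum without 6 milk protein genes, or by the median of ratios. List medians under each scaling and list sums without joined entries were added after the data were seen. The code was tested on simulated data. No sequences or coordinates were used. Work was done in Python 3.11.15 with numpy 2.4.6, pandas 2.3.3 and matplotlib 3.10.9.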

Additional observations from a re-analysis of the deposited data

Results flagged for a closer look

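Between D15 and D250, 3 genes went in opposite directions in the breeds, by more than 0.5 on the log2 scale in each. CTSB had a log2 ratio of 2.09 for D250 over D15 in Kashmiri and -0.90 in Jersey, which makes a difference of -3.00, Jersey minus Kashmiri. CTSZ was at 0.77 in Kashmiri and -1.44 in Jersey, a difference of -2.21. CTSH was at 1.63 in Kashmiri and -0.51 in Jersey, a difference of -2.15. Its Jersey value was -0.47 after scaling by the median of ratios, which falls short of 0.5. With 1 value per group these differences were not tested.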

How the results depend on the processing

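No paired analysis was possible because the deposited values are 1 per group, and for the same reason no sample could be left out in turn. At a 4-fold limit, the count of genes past the limit was 2 (5 at 2-fold) for Kashmiri D90 over D15, 3 (5) for Kashmiri D250 over D15, 0 (3) for Jersey D90 over D15, 0 (4) for Jersey D250 over D90, 0 (2) for Jersey D250 over D15 and 1 (7) for Jersey over Kashmiri at D250. Fewer genes can pass a higher limit by construction. The last of these counts was 2 with upper-quartile scaling and 2 with the sum without milk proteins. That sum also moved the median log2 ratio of the 8 genes from -0.08 to 0.58 for Kashmiri D250 over D90, from 1.35 to 2.33 for Kashmiri D250 over D15, and from 1.21 to 0.46 for Jersey over Kashmiri at D250. Leaving out joined names drops the CTSS entry, and each count it was part of was then lower by 1. Rescaling shifted the ratios of all features by -0.76 to 1.01 on the log2 scale. Within 0.58 on the log2 scale or a factor of 1.5 of the reported value were 69 of 72 medians, 73 of 81 counts, 543 of 567 log2 ratios of single genes, 61 of 81 shares of all features and 12 of 12 LAMP1 over LAMP2 ratios. The share of all features at 2-fold, in either direction, was 17.7% to 42.4% over the 9 comparisons. It was 1.98% to 12.6% at 4-fold, 9.35% to 22.2% with no lower limit, 26.2% to 52.7% with no pseudocount, 25.4% to 51.9% with a pseudocount of 0.1 FPKM and 19.7% to 51.0% with the sum without milk proteins.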

Other observations

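In Jersey at D250 against D15, 7 of the 15 relatives and regulators of TFEB tested were at least 2-fold higher and 2 lower with a median log2 ratio of 0.94, with FNIP1 at 2.68, TFEC at 2.37 and TFE3 at 2.37, beside 24.5% of all features higher and 17.9% lower. In the same comparison 7 of 16 autophagy genes were higher and none lower with a median of 0.97, while the 5 cathepsins had a median of -0.51. After upper-quartile scaling the autophagy median was 0.77, with 4 higher and 1 lower, beside 20.9% of all features higher and 21.9% lower. IGF2R, the receptor that carries lysosomal enzymes from the Golgi, was higher in Jersey with log2 ratios of 1.28, 1.55 and 3.35 at D15, D90 and D250. These values carry no test.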
